A study of Homo sapiens with 31 samples.

Results

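The 10 genes of the smooth muscle contractile apparatus described here were taken as a fixed list, chosen with earlier results of these data known. The list holds ACTA2, ACTG2, CNN1, TAGLN, MYH11, MYL9, TPM1, TPM2, CALD1 and DES, and all 10 are present among the 17113 protein-coding genes of the count table. RNA sequencing was performed on total RNA of 5 human colorectal cell lines and of RNA mixtures. LoVo, LS1034, HT-29 and HCT116 are adenocarcinoma lines (LS1034 from the cecum, the others labelled colon), and CCD841CoN is labelled as normal colon. All lines are untreated, carry the label WT, and were grown in serum-containing medium. Each line has 3 unmixed libraries. Each cancer line has 1 further library at each of 4 mixing ratios, in which 0.1%, 1%, 10% or 50% of the RNA is from the cancer line and the remainder from CCD841CoN. The mixtures were made to test the computational recovery of cancer RNA from a known background. The 31 libraries hold 9688765 to 56741879 counts. Levels are CPM, the read count of a gene scaled by the total count of its library. The labels do not say whether the 3 libraries of a line come from separate cultures, so a p-value measures the spread between these libraries.

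Smooth muscle shortens when myosin filaments pull on actin filaments. Calcium activates myosin through phosphorylation of its regulatory light chain, tropomyosin lies along the actin filament, and calponin, transgelin and caldesmon bind the filament and modulate it. Many of these genes are targets of serum response factor and its partner myocardin, and several of them, ACTA2 and TAGLN among them, are also expressed by activated fibroblasts (myofibroblasts). MYH11 and DES mark the more mature smooth muscle state, in which the colon wall expresses the full set.

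RefSeq promoter windows (GRCh38.p14, 250 bases before to 50 after a gene start) were matched for 6 of the 10 members, ACTA2, ACTG2, CNN1, TPM1, TPM2 and CALD1, and not for TAGLN, MYH11, MYL9 and DES. They were searched on both strands for the CArG box, the element bound by serum response factor, and for CpG dinucleotides. The 150 bases before the start are shown for 4 members whose levels are compared below, 2 with such letters in the window and 2 without. Capitals mark a CArG box in ACTG2 and, in ACTA2, a CArG box with 1 letter off in its core. The stretches lie at chr10:88952774-88952923 on the minus strand (ACTA2), and on the plus strand at chr2:73892858-73893007 (ACTG2), chr19:11538701-11538850 (CNN1) and chr15:63048339-63048488 (TPM1).
ACTA2: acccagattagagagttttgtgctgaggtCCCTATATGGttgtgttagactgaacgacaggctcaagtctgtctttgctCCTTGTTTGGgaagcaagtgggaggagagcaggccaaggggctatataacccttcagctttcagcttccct
ACTG2: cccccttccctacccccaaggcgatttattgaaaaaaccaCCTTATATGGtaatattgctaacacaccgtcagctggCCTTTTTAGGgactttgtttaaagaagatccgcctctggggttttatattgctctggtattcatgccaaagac
CNN1: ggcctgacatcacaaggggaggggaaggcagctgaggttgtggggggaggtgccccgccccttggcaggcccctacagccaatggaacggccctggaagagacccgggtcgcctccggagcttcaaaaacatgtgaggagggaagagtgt
TPM1: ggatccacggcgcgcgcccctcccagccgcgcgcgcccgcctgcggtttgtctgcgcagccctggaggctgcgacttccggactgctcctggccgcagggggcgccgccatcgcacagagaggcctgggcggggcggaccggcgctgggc
The ACTG2 window holds 2 CArG boxes, 110 and 73 bases before the start. Of all 35116 promoter windows of 300 bases, 1.29% hold at least 1 CArG box and 0.0313% hold 2 or more. The first of 2 ACTA2 windows holds 2 boxes with 1 letter off, 121 and 71 bases before the start, and 1 of 4 CALD1 windows holds 1, 26 bases before it. Allowing 1 letter off, 8.13% of all windows hold a box. No such letters were found in the windows of CNN1, TPM1 and TPM2. CpG dinucleotides number 5 in ACTG2, 6 in the ACTA2 window shown, 10 in CNN1 and 39 in TPM1, against a median of 14 over all windows. A match describes the letters of a window and is not evidence of binding.

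In CCD841CoN, 8 of the 10 members were abundant, and MYH11 and DES were nearly undetected. The 10 genes together took 12213 ± 1157 CPM (SD, n = 3), or 1.22% of all counts, in CCD841CoN. In the cancer lines their sum was 244 ± 52.2 CPM in LoVo, 188 ± 71.1 CPM in LS1034, 316 ± 30.2 CPM in HT-29 and 384 ± 127 CPM in HCT116 (SD, n = 3 each). By counts, the remaining signal was mostly tropomyosin: TPM1 made up 94.1% of the sum in LoVo, 92.0% in LS1034 and 66.9% in HT-29, and TPM2 made up 61.8% in HCT116. These shares are not corrected for exon length. Per kilobase of exon, TPM2 led in HT-29, at 29.4 ± 9.84 CPM against 16.4 ± 0.476 for TPM1 (SD, n = 3). The leading gene was the same by both measures in LoVo, LS1034 and HCT116. In bulk RNA, fewer cells of a type and less RNA per cell cannot be told apart.

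Against CCD841CoN, the same 8 members were lower in each of the 4 cancer lines (ACTA2, ACTG2, CNN1, TAGLN, MYL9, TPM1, TPM2 and CALD1). A call required a Benjamini-Hochberg adjusted p below 0.05 in edgeR's quasi-likelihood test and a log2 fold change of at least 1 in size. The share of all 14452 tested genes called lower by this rule was 21.6% in LoVo, 21.4% in LS1034, 20.9% in HT-29 and 21.2% in HCT116. The median log2 fold change of the 10 members was -9.82 in LoVo, -9.37 in LS1034, -8.56 in HT-29 and -5.89 in HCT116, beside medians over all tested genes of 0.23, 0.24, 0.21 and 0.23. DES was higher in LS1034 and HCT116, where 25.7% and 25.4% of genes were called higher. In LoVo and HT-29, 0 members were called higher (26.4% and 24.7% of genes). MYH11 was called in no line. The 4 comparisons share the 3 CCD841CoN libraries.

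**Figure D1:**
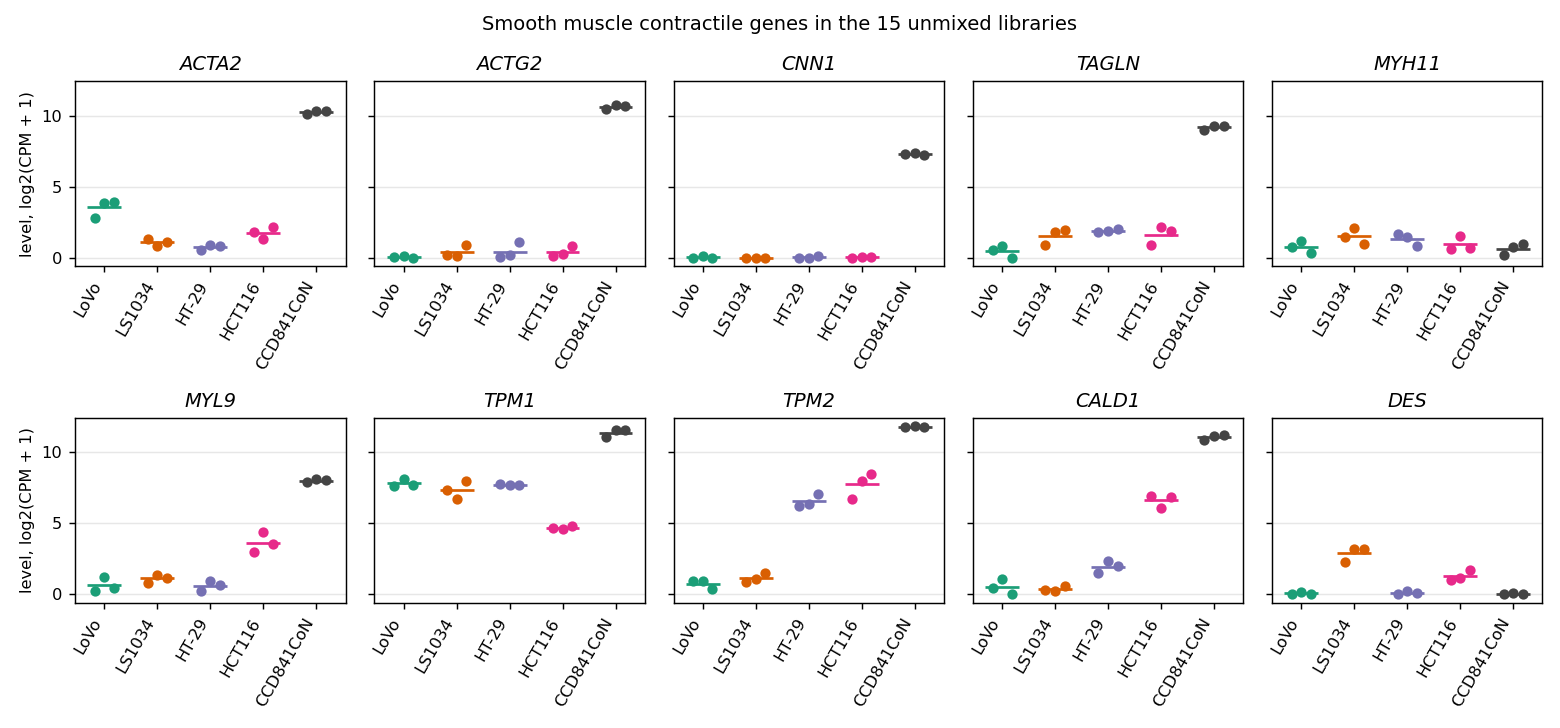
Level of each of the 10 members as log2(CPM + 1) (vertical axis) in the 3 libraries (points) of each of the 5 lines (horizontal axis), with the mean as a bar. In 8 panels all CCD841CoN libraries lie above all cancer line libraries, whereas MYH11 is low in every line and DES is highest in LS1034. How many of all genes show such a separation was not counted.

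Among the actins, ACTA2, the smooth muscle alpha-actin, was at 1122, 1291 and 1265 CPM in the CCD841CoN libraries. LoVo had 5.96, 13.8 and 14.4 CPM, HCT116 had 2.54, 1.46 and 3.52 CPM, LS1034 had 1.49, 0.750 and 1.19 CPM, and HT-29 had 0.487, 0.842 and 0.741 CPM. No cancer library reached a CCD841CoN library, and LoVo stood above the 9 libraries of the other cancer lines. The mean in CCD841CoN was 108-fold that in LoVo (log2 fold change -7.11 ± 0.45 SE, edgeR adjusted p = 5.80e-09) and 1776-fold that in HT-29 (-11.06 ± 0.54, adjusted p = 9.45e-10). On the opposite strand, ACTA2 exons share 380 of 2976 bases with FAS and 516 with the antisense gene ACTA2-AS1. The strand setting of the counting is not given in the sources used here. FAS levels were 52.9 ± 8.93 CPM in LoVo, 29.7 ± 16.1 in HCT116, 8.17 ± 1.12 in HT-29 and 5.66 ± 1.08 in LS1034 (SD, n = 3), and their part in the ACTA2 order was not tested.

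ACTG2, the enteric gamma-actin of visceral smooth muscle, was at 1407, 1706 and 1633 CPM in CCD841CoN. It was nearly absent from the cancer lines, with 4 counts over the 3 LoVo libraries, 17 in LS1034, 16 in HT-29 and 24 in HCT116. The fold of CCD841CoN over a cancer line ran from 3748 (HT-29; log2 fold change -12.61 ± 1.05 SE, edgeR adjusted p = 6.64e-08) to 35444 (LoVo; -15.04 ± 1.17, adjusted p = 3.73e-08). In LS1034, HT-29 and HCT116 replicate 3 was the highest library, at 0.821, 1.11 and 0.786 CPM, and replicates 1 and 2 lay between 0.0348 and 0.194 CPM. By edgeR, unlike the fold of means, HCT116 and not HT-29 had the smallest log2 fold change with all libraries (-12.48). Without the line's own replicate 3 the log2 fold change was -14.54 in HT-29, -14.15 in LS1034 and -13.79 in HCT116. Without HT-29 replicate 1 it was -11.94 in HT-29. The fibroblast genes DCN and COL1A2 were also highest in replicate 3 of these lines, with DCN at 1.49, 5.93 and 5.97 CPM there and at 0 to 0.666 CPM in replicates 1 and 2. These genes were chosen after their values were seen, and whether CCD841CoN RNA entered replicate 3 was not tested. Actin genes are close in coding sequence, and how reads shared between them were counted is not given in the sources used here; the non-muscle actin ACTB was at 4608 to 8892 CPM (means) in the cancer lines.

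Of the myosin genes, MYL9, the regulatory light chain, was at 241, 272 and 259 CPM in CCD841CoN. HCT116 kept 6.99, 20.2 and 10.6 CPM, and the 9 libraries of the other cancer lines lay between 0.160 and 1.62 CPM. The fold of CCD841CoN was 20.4 over HCT116 (log2 fold change -4.69 ± 0.57 SE, edgeR adjusted p = 5.17e-06), 213 over LS1034, 418 over LoVo and 467 over HT-29. HCT116 was thus the cancer line with the highest MYL9 level, and no library of another cancer line reached it. Without LoVo replicate 2 the log2 fold change in LoVo went from -9.07 to -10.41, past that of HT-29 (-9.14), and without HT-29 replicate 2 that of HT-29 was -10.02, so the order of these lines is not fixed.

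MYH11, the smooth muscle myosin heavy chain, was at 0.162, 0.686 and 0.929 CPM in CCD841CoN, or 21 counts in all. The means in the cancer lines were 0.749 ± 0.525 CPM in LoVo, 2.01 ± 1.18 in LS1034, 1.57 ± 0.746 in HT-29 and 0.9969 ± 0.734 in HCT116 (SD, n = 3). Libraries overlapped with CCD841CoN in LoVo, HT-29 and HCT116, and no comparison was called, with edgeR adjusted p from 0.13 (LS1034, log2 fold change 1.54 ± 0.83 SE) to 0.940 (LoVo, 0.08 ± 0.83). Of its 16104 exonic bases, 765 lie opposite exons of NDE1, which was at 47.4 to 71.7 CPM (means) in the cancer lines and at 24.3 ± 3.39 CPM in CCD841CoN. The antisense genes AF001548.2 and AF001548.1 also lie opposite 298 and 234 of the exonic bases of MYH11. At these counts a contribution from NDE1 or these genes cannot be told apart from MYH11 itself.

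The filament-binding genes CNN1, TAGLN and CALD1 differed in how completely they were missing from the cancer lines. CNN1, basic calponin, was at 157, 162 and 151 CPM in CCD841CoN, and 5 counts were found over all 12 cancer libraries. LS1034 had 0 counts, for which the fold is at least 3734 at a floor of 3 counts over the group. The fold was 5860 over LoVo (2 counts; counting interval 1622 to 48385), 5893 over HCT116 (2 counts; 1631 to 48663) and 10098 over HT-29 (1 count; 1812 to 398849), with 95% Poisson intervals that cover counting error only. The counts of LoVo lay in replicate 2 alone and that of HT-29 in replicate 3, and without these libraries both lines were at 0 like LS1034, so the lines have no order for CNN1.

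TAGLN, transgelin, was at 511, 620.1 and 605 CPM in CCD841CoN. Levels were low and close in 3 cancer lines, at 2.09 ± 1.09 CPM in LS1034, 2.76 ± 0.211 in HT-29 and 2.32 ± 1.35 in HCT116 (SD, n = 3). LoVo was lower, at 0.481, 0.805 and 0 CPM. The fold of CCD841CoN was 210 over HT-29 (log2 fold change -7.97 ± 0.67 SE, edgeR adjusted p = 7.05e-08) and 1351 over LoVo (-10.56 ± 0.75, adjusted p = 1.59e-08; -11.15 without LoVo replicate 2). TAGLN shares 446 of 3917 exonic bases with PCSK7 on the opposite strand, which was at 28.4 to 77.8 CPM (means) in the cancer lines.

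CALD1, caldesmon, which is made as a smooth muscle form and a shorter form of non-muscle cells that a gene-level count does not separate, was at 1825, 2240 and 2410 CPM in CCD841CoN. HCT116 kept 123, 67.5 and 114 CPM. HT-29 had 1.85, 4.01 and 2.96 CPM, and all LoVo and LS1034 libraries lay between 0 and 1.09 CPM. The fold of CCD841CoN was 21.3 over HCT116 (log2 fold change -4.70 ± 0.53 SE, edgeR adjusted p = 2.38e-06), 734 over HT-29, 4434 over LoVo and 6715 over LS1034 (-13.10 ± 0.78, adjusted p = 2.32e-09). Without LoVo replicate 2 the log2 fold change in LoVo went from -12.33 to -13.38, past that of LS1034.

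The tropomyosins, which wind along the actin filament, carried most of the members' counts left in the cancer lines, and the lines divided differently for each. TPM1 was at 2143, 3000 and 2968 CPM in CCD841CoN, and at 196, 284 and 209.7 CPM in LoVo. It was at 166, 106 and 247 CPM in LS1034 and at 218, 206 and 209 CPM in HT-29, and these 3 lines overlapped. HCT116 was the lowest, at 24.1, 22.8 and 27.8 CPM. The fold of CCD841CoN was 11.8 over LoVo (log2 fold change -3.90 ± 0.33 SE, edgeR adjusted p = 8.25e-08), 12.8 over HT-29, 15.7 over LS1034 and 109 over HCT116 (-7.07 ± 0.38, adjusted p = 2.06e-09). TPM1 also yields muscle and non-muscle forms, which a gene-level count sums. On the opposite strand, 2070 of its 12876 exonic bases face TPM1-AS and 691 face AC079328.2.

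TPM2, beta-tropomyosin, was at 3473, 3667 and 3510 CPM in CCD841CoN, and it showed the reverse placing of HCT116. HCT116 had 107, 251 and 355 CPM and HT-29 had 74.1, 79.8 and 132 CPM. All LoVo and LS1034 libraries lay between 0.319 and 1.87 CPM. The fold of CCD841CoN was 14.9 over HCT116 (log2 fold change -4.22 ± 0.46 SE, edgeR adjusted p = 1.55e-06), 37.2 over HT-29, 2766 over LS1034 and 5009 over LoVo (-12.53 ± 0.66, adjusted p = 1.52e-09).

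DES encodes desmin, the intermediate filament of muscle cells. It gave 1 count over the 3 CCD841CoN libraries and was at 3.77, 8.25 and 8.06 CPM in LS1034 and 1.06, 1.26 and 2.31 CPM in HCT116. LoVo and HT-29 libraries lay between 0 and 0.160 CPM. Of the 2464 exonic bases of DES, 104 lie opposite the antisense gene AC053503.4, whose part in these levels was not tested. LS1034 was 279-fold above CCD841CoN by pooled counts (95% counting interval 50.1 to 11027; log2 fold change 7.64 ± 1.22 SE, edgeR adjusted p = 6.71e-05), and HCT116 67.8-fold (12.2 to 2680; 5.49 ± 1.22, adjusted p = 0.00131). In the mean of the 4 lines DES was higher by 3.81 ± 1.21 (adjusted p = 0.0129), but not called without CCD841CoN replicate 1, which itself has 0 counts (2.94, adjusted p = 0.0846). Without that library the log2 fold change was 6.77 in LS1034 and 4.63 in HCT116. Without CCD841CoN replicate 2, which holds the 1 count, CCD841CoN is at 0 and the fitted value (10.25 and 8.10) is no bound. DES was thus found in 2 adenocarcinoma lines in which CNN1 and ACTG2 were nearly absent, at a level per exon length of 2.72 ± 1.03 CPM per kb in LS1034, beside 412 ± 30.5 CPM per kb for ACTA2 in CCD841CoN (SD, n = 3).

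The order of the members within CCD841CoN was taken per kilobase of exon, whereas the shares of the sum given above are shares of counts. In CCD841CoN the order of mean levels was TPM2 at 1093 ± 31.7 CPM per kb, ACTG2 at 415 ± 40.8, ACTA2 at 412 ± 30.5, CALD1 at 219 ± 30.6, TPM1 at 210 ± 37.7, TAGLN at 148 ± 15.1, MYL9 at 91.2 ± 5.42 and CNN1 at 54.2 ± 1.99 (SD, n = 3). ACTG2 and ACTA2 differed by less than their spread, as did CALD1 and TPM1. MYH11 was at 0.0368 ± 0.0243 CPM per kb and DES at 0.0116 ± 0.0201, below every abundant member. The exon lengths come from another annotation build than the counting, which makes these values approximate.

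Pairs of cancer lines were compared with the same test, with adjustment over all 14452 genes. LoVo and LS1034 differed in 3 members (26.0% of all genes called): ACTA2 was higher in LoVo (log2 difference 3.22, adjusted p = 1.88e-05), and TAGLN (-2.14, 0.0152) and DES (-6.90, 0.000127) were lower. LoVo and HT-29 differed in 4 (27.2% of genes), with ACTA2 higher in LoVo (3.96) and TAGLN (-2.60), TPM2 (-7.07) and CALD1 (-2.55) lower. LS1034 and HT-29 differed in 3 (22.6% of genes), with DES higher in LS1034 (6.28) and TPM2 (-6.30) and CALD1 (-3.33) lower.

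HCT116 differed from each of the other cancer lines in 6 or 7 members. TPM1 was lower in HCT116 than in LoVo, LS1034 and HT-29, by log2 differences of 3.17, 2.85 and 3.15. MYL9 was higher in HCT116 (differences of those lines from it -4.38, -3.34 and -4.45), as were TPM2 (-8.31, -7.53 and -1.23) and CALD1 (-7.63, -8.40 and -5.07). ACTA2 in HCT116 lay below LoVo (2.12) and above LS1034 (-1.10, adjusted p = 0.0379) and HT-29 (-1.84). DES in HCT116 lay above LoVo (-4.75) and HT-29 (-4.13) and below LS1034 (2.15, adjusted p = 0.0424), and TAGLN was lower in LoVo than in HCT116 (-2.25, adjusted p = 0.0125). Of all genes, 22.1% were called between LoVo and HCT116, 32.9% between LS1034 and HCT116 and 30.6% between HT-29 and HCT116. ACTG2, CNN1 and MYH11 were called between no pair of cancer lines by edgeR.

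Several of the smaller differences between cancer lines were no longer called when 1 library was left out, whichever of several libraries it was, and most kept a similar size. The TAGLN call between LoVo and LS1034 ended without LoVo replicate 1, LS1034 replicate 2 or LS1034 replicate 3 (log2 differences -1.81 to -2.16, edgeR adjusted p 0.0556 to 0.0648). That between LoVo and HCT116 ended without LoVo replicate 1 (-2.24, adjusted p = 0.0520) or HCT116 replicate 2 (-1.85, 0.0626). The TPM2 call between HT-29 and HCT116 ended without HT-29 replicate 1 or 2 or HCT116 replicate 2 or 3 (-0.78 to -1.24, adjusted p 0.0535 to 0.163). For LS1034 against HCT116, the ACTA2 call ended without LS1034 replicate 2 or 3 or HCT116 replicate 1 or 3 (-0.79 to -1.07, adjusted p 0.0853 to 0.169), and the DES call without any LS1034 replicate or HCT116 replicate 1 or 2 (1.98 to 2.46, adjusted p 0.0506 to 0.12). In a fit of the compared lines alone the calls of CALD1 between LoVo and HT-29 (0.0608) and of ACTA2 between HT-29 and HCT116 (0.0550) ended as well. With the replicate number as a block, MYL9 was also lower in LoVo than in LS1034 (adjusted p = 0.0447). The large differences of TPM1, MYL9 and CALD1 between HCT116 and the other cancer lines kept their calls in all alternatives run. Their size moved by over 1.5 times without LoVo replicate 2 for MYL9 (-5.67) and CALD1 (-8.60) between LoVo and HCT116, without LoVo replicate 1 for MYL9 there (-3.80), and without HT-29 replicate 2 for MYL9 between HT-29 and HCT116 (-5.28). So did CALD1 between LoVo and HT-29 without LoVo replicate 2 (-3.50). The called DES differences of LoVo and HT-29 from LS1034 and HCT116 moved likewise without LoVo replicate 2 (-8.09 and -5.93), HT-29 replicate 1 (LS1034 higher by 5.61, HT-29 versus HCT116 -3.45) or HT-29 replicate 2 (7.60 and -5.44).

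Across the 15 unmixed libraries, ACTG2 and CNN1 had the most alike profiles among the members (Pearson r of log2(CPM + 1) of 0.9973), as a description, since the 3 high libraries of CCD841CoN set most of it. MYL9 and CALD1 had r = 0.961, TPM2 and CALD1 0.922, and MYL9 and TPM2 0.840. These 3 genes had their highest cancer-line mean in HCT116. TAGLN, which did not, also had r = 0.922 with MYL9, so these r values do not show a shared HCT116 signal. Of all tested genes, those most like each member were CD248 for ACTG2 (0.9994), ARMCX1 for CNN1 (0.9997), PRR16 for ACTA2 (0.9929) and CLIP3 for TAGLN (0.9925). They were ZNF804A for MYL9 (0.9906), PCSK6 for TPM1 (0.974), CMTM3 for TPM2 (0.989) and CA8 for CALD1 (0.9909). The profile of DES was closest to GPR15 (0.978), with 13.2 CPM in LS1034, 1.37 in HCT116 and 0 in CCD841CoN. MYH11 had no such close neighbour, with CANT1 first at 0.903.

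The label smooth muscle was set beside marker lists in the mean of the 4 cancer lines versus CCD841CoN, where 22.3% of tested genes were called lower and 24.8% higher. The lists were chosen with earlier results of these data known, so the counts are a description and not an independent check. Of 18 tested genes of the wider smooth muscle apparatus, 13 were lower and 3 higher in the cancer lines. ACTN1, an actin crosslinker, was at 2181 ± 231 CPM in CCD841CoN and at 216 to 348 CPM in the cancer lines (means), and MYLK, the kinase of the myosin light chain, at 991 ± 68.8 and at 6.62 to 24.9 CPM. Of 13 tested transcription regulators, 8 were lower and 3 higher in the cancer lines, and CSRP1, a LIM protein, was at 844 ± 7.30 CPM in CCD841CoN against 84.1 to 268 CPM. The 3 regulators called higher, named after their values were seen, were MRTFB, GATA6 and KLF4. MRTFB, a myocardin-related coactivator, had a log2 fold change of 2.52 (5.27 CPM in CCD841CoN and 28.5 to 54.8 CPM in the cancer lines). The transcription factors GATA6 and KLF4 had 2.41 and 4.22. GATA6 was not called in HCT116 (log2 fold change -0.11, edgeR adjusted p = 0.757). Among the 8 called lower, and also named after their values were seen, were MRTFA (-1.75) and SRF, serum response factor (-1.03). SRF was not called in LS1034 (-0.77) or HT-29 (-0.98). Myocardin, MYOCD, named after its value was seen, was at 8.47 ± 2.08 CPM in CCD841CoN and at 0 to 0.0536 CPM in the cancer lines.

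Of 14 tested non-muscle counterparts of the members, 11 were lower and 1 higher in the cancer lines. ACTB was at 19938 ± 1538 CPM in CCD841CoN and 4608 to 8892 in the cancer lines (means), and TPM4 at 2235 ± 41.2 and 286 to 984. The median log2 fold change over these paralogues was -1.98, beside -8.65 over the 10 members, and the difference of the lists was not tested. Single paralogues moved by more than the members' median: VIM, the intermediate filament vimentin, was lower at a log2 fold change of -10.23, and MYH14, a non-muscle myosin heavy chain, was the 1 called higher, at 11.07. Of 10 tested striated muscle genes, 5 were higher and 2 lower in the cancer lines, led by TNNT1, a troponin, at 124 ± 67.8 CPM in HCT116 and 0.418 ± 0.319 in CCD841CoN.

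All 10 listed fibroblast genes were lower in the cancer lines by edgeR. DESeq2 called 7 of the 8 for which it gave an adjusted p (none for DCN and COL1A2), and not POSTN (adjusted p = 0.0518), which was at only 0.619 ± 0.390 CPM in CCD841CoN and was called by edgeR in 1 of the 4 single lines, LoVo. The summed level of the 10 genes was 25840 to 31681 CPM in the CCD841CoN libraries and 1.91 to 33.6 CPM in the cancer libraries, with none of the 10 at 0 in any group. COL1A1 alone was at 8168 ± 1236 CPM and DCN at 7486 ± 825 CPM in CCD841CoN. Of 7 pericyte genes, 5 were lower and 1 higher in the cancer lines, with a sum of 952 to 1003 CPM in CCD841CoN, where 2 of them (ABCC9 and KCNJ8) were at 0. All 8 epithelial genes were higher in the mean of the cancer lines. VIL1, named after its value was seen, was not called in HCT116 (0.101 CPM, edgeR adjusted p = 0.0687). EPCAM was at 0.108 ± 0.188 CPM in CCD841CoN, but KRT18 was at 232 ± 28.6 CPM there, KRT19 at 41.5 ± 11.1 and KRT8 at 11.2 ± 0.837. Endothelial genes summed to at most 1.75 CPM there and 0 of 2 tested were called (edgeR; adjusted p = 0.373 for VWF). Both tested genes of interstitial cells of Cajal and glia, ANO1 and KIT, were lower in the mean of the lines, and LYZ, the 1 tested immune gene, was higher. ANO1 was not called in HT-29 (228 ± 67.7 CPM, against 127.5 ± 21.98 CPM in CCD841CoN; SD, n = 3) or HCT116, and LYZ was at 2368 CPM in HT-29 but not called in HCT116 (0.0910 CPM). CCD841CoN thus holds ACTA2, ACTG2, CNN1 and TAGLN with fibroblast collagen genes and nearly without MYH11 and DES. MYH11 and DES go against calling the line mature smooth muscle, but other genes of the wider apparatus were present. Named after their values were seen, KCNMA1 was at 101.8 ± 7.68 CPM in CCD841CoN, SYNM at 40.0 ± 10.8 and SYNPO2 at 39.1 ± 14.3. LMOD1 was at 33.8 ± 3.56 CPM and HSPB6 at 21.9 ± 5.42. Of the 20 listed apparatus genes, 2 (PLN and PDLIM3) were at 0 in CCD841CoN.

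In the mixtures, the CCD841CoN members were diluted by cancer RNA. The summed level of the 10 genes was 10681 to 10794 CPM in the 4 mixtures with 0.1% cancer RNA, 10511 to 10852 at 1%, 9090 to 9767 at 10% and 4786 to 5996 at 50%. The ranges of 0.1% and 1% overlapped and the others did not. At 50% the sum was 56.0% of that in the 0.1% mixture of the same series for LoVo, 48.9% for LS1034, 44.8% for HT-29 and 52.1% for HCT116.

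At 1% against 0.1% cancer RNA, 0 of 9 tested members were called by edgeR or DESeq2, and 0 had an unadjusted p below 0.05 (0.0454% of all 13212 genes were called). At 10%, 3 members were lower (0.848% of genes): CNN1 (log2 fold change -0.28, edgeR adjusted p = 0.0136), TPM1 (-0.22, 0.00694) and TPM2 (-0.22, 0.0192). Each of these calls ended when single libraries were left out, and without the 0.1% mixture of LoVo, LS1034 or HT-29 0 members were called. ACTA2, ACTG2, TAGLN, MYL9 and CALD1 had similar values (-0.20 to -0.22) with adjusted p from 0.0517 to 0.0777. With the cancer line as a block, which pairs the mixtures of a series, 7 members were lower, by DESeq2 8, and with library size as the only scaling 0. At 50%, 8 members were lower (23.5% of genes), with log2 fold changes of -1.08 (TPM1, adjusted p = 2.85e-10) to -1.17 (TAGLN, adjusted p = 1.49e-09).

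**Figure D2:**
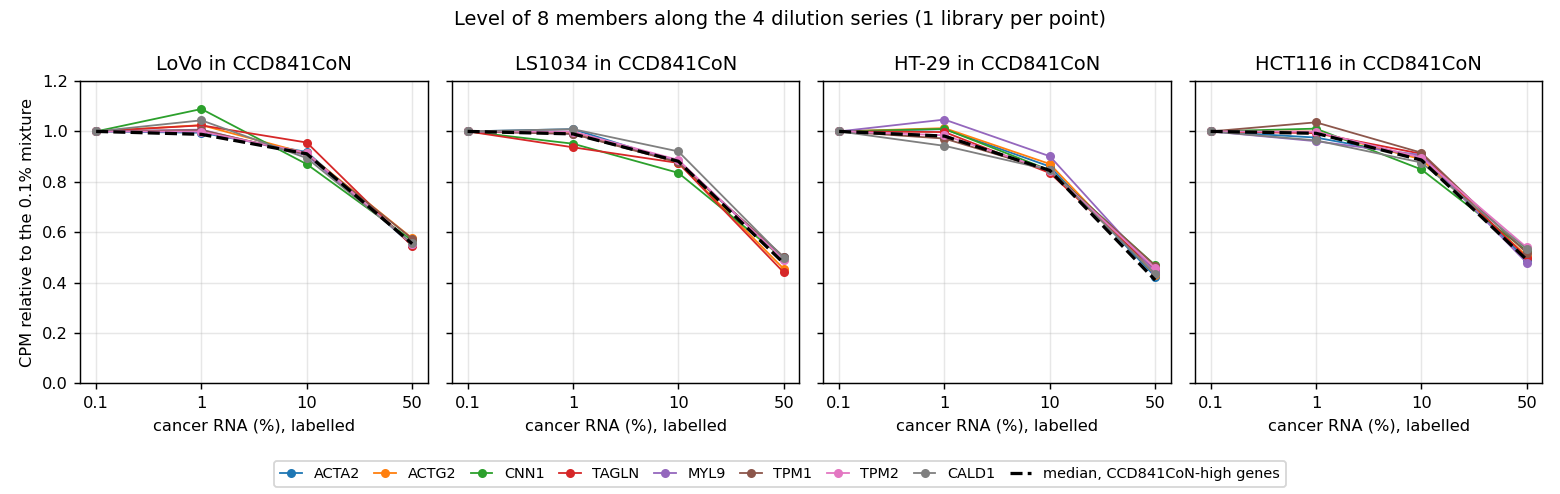
CPM of 8 members relative to the 0.1% mixture of the same series (vertical axis) at the labelled percentage of cancer RNA (horizontal axis, evenly spaced steps), 1 library per point, with the median over genes high in CCD841CoN and low in the cancer line as a dashed line. The members stay near 1 up to 1% cancer RNA and reach 0.424 to 0.576 at 50%, close to the dashed line in each panel.

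Within each series the ratios of the 8 abundant members lay close together. Their median ratio to the 0.1% mixture at 50% was 0.555 in the LoVo series, 0.495 in LS1034, 0.445 in HT-29 and 0.512 in HCT116. The median over all genes high in CCD841CoN and low in that cancer line was 0.554 (709 genes), 0.477 (807), 0.410 (787) and 0.491 (669). At 10% the members' medians were 0.911, 0.877, 0.846 and 0.897, beside 0.911, 0.881, 0.845 and 0.886 for those genes. The cancer share estimated from cancer-line marker genes was 47.4%, 55.5%, 52.7% and 50.1% at the labelled 50%, and 10.1%, 13.4%, 14.3% and 11.1% at the labelled 10%.

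Individual members followed this dilution with small deviations. TPM1 was at 2167, 2227, 2211 and 2158 CPM in the 0.1% mixtures of LoVo, LS1034, HT-29 and HCT116, and at 1244, 1119, 1033 and 1117 CPM in the 50% mixtures. ACTG2 was at 1408, 1426, 1383 and 1363 CPM and then at 811, 649, 597 and 689.6 CPM. CNN1, nearly absent from the unmixed cancer lines, was at 143, 147, 146 and 149 CPM and then at 81.1, 72.7, 68.3 and 78.3 CPM. In each of these 3 genes the 50% libraries lay below all 0.1% libraries, with LoVo the highest of the 4 and HT-29 the lowest.

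Set against the unmixed profiles, the members' levels were below the linear expectation in all 4 series at 10% (series medians 0.861 to 0.915 of expected). At 50% they were below it on average, with series medians of 0.788 to 1.03, and the LoVo series lay above it. The ratio of observed to expected level, as the median over the 8 members averaged over the 4 series, was 0.887 ± 0.0237 at 10% and 0.891 ± 0.102 at 50% (SD, n = 4). With the cancer share estimated from marker genes the ratios were 0.909 ± 0.00528 and 0.916 ± 0.0720. On TMM-scaled CPM they were 0.866 ± 0.0498 and 0.747 ± 0.0847. With the 0.1% mixtures in place of unmixed CCD841CoN they were 0.983 ± 0.0319 and 0.985 ± 0.0970. With CCD841CoN replicate 1 alone, an alternative chosen after the data were seen, they were 0.977 ± 0.0330 and 0.968 ± 0.0860.

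The 3 CCD841CoN libraries did not lie at equal distance from the 0.1% mixtures, which hold almost the same RNA. TPM1 was at 2143 CPM in replicate 1, at 3000 and 2968 CPM in replicates 2 and 3, and at 2158 to 2227 CPM in the 0.1% mixtures. CALD1 was at 1825, 2240 and 2410 CPM, and at 1685 to 1820 CPM in the 0.1% mixtures. ACTG2 was at 1407, 1706 and 1633 CPM, and at 1363 to 1426 CPM in the 0.1% mixtures. Replicates 2 and 3 averaged 1.39 times replicate 1 for TPM1, 1.27 for CALD1, 1.198 for TAGLN, 1.19 for ACTG2, 1.14 for ACTA2, 1.10 for MYL9, 1.03 for TPM2 and 0.998 for CNN1. In the test of the 0.1% mixtures against CCD841CoN, 0 of 9 members were called by edgeR (0.00% of 12199 genes; 5 members and 1686 genes had an unadjusted p below 0.05, and DESeq2 called CALD1 among 111 genes). Without CCD841CoN replicate 1, 6 members were lower in the mixtures among 2118 genes called, namely TPM1 (-0.47), CALD1 (-0.46), TAGLN (-0.30), ACTG2 (-0.29), ACTA2 (-0.18) and TPM2 (-0.12). The folds between CCD841CoN and the cancer lines given above exceed this spread in all 8 members.

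**Figure D3:**
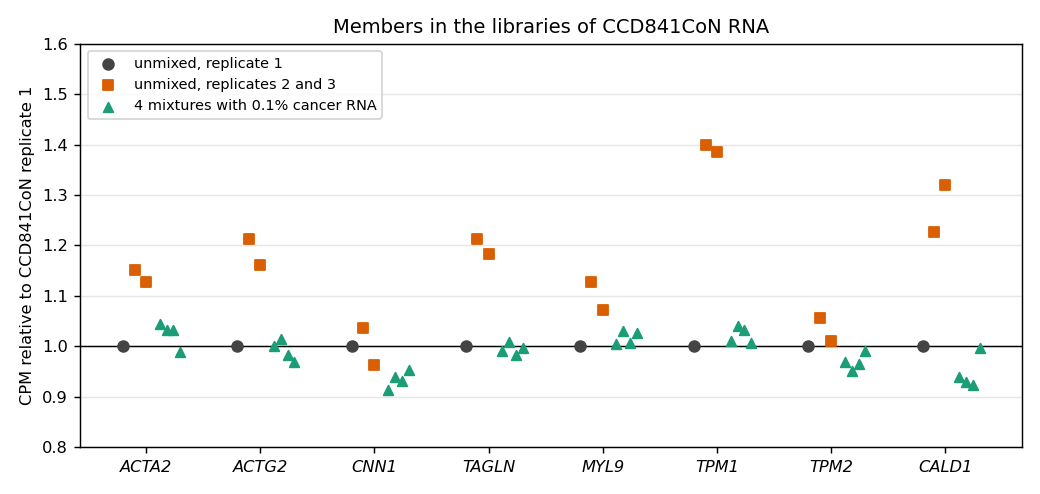
Level of 8 members relative to CCD841CoN replicate 1 (vertical axis, ratio of CPM, axis starting at 0.8) in the 3 unmixed CCD841CoN libraries and the 4 mixtures with 0.1% cancer RNA. Replicates 2 and 3 lie well above the mixtures for TPM1 and CALD1, and replicate 1 lies among or near them.

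DES was detected mainly in the series of LS1034 and HCT116, the 2 lines with the highest unmixed levels. In the LS1034 series it was at 0 counts at 0.1%, 2 counts at 1%, 94 counts or 1.76 CPM at 10% (95% Poisson interval 1.42 to 2.15) and 70 counts or 4.34 CPM at 50% (3.39 to 5.49). The levels expected from the labelled percentages were 0.695 CPM at 10%, or 0.923 CPM at the estimated share, and 3.36 CPM at 50%. The 10% library was thus above both expected levels by more than its counting error, and this has no replicate check. In the HCT116 series DES was at 2, 0, 3 and 17 counts, the last being 1.18 CPM (0.686 to 1.89; expected 0.787). DES did not pass the filter of the mixture test. It was found at 11 counts in the 1% LoVo mixture and at 0 in the other LoVo mixtures.

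**Figure D4:**
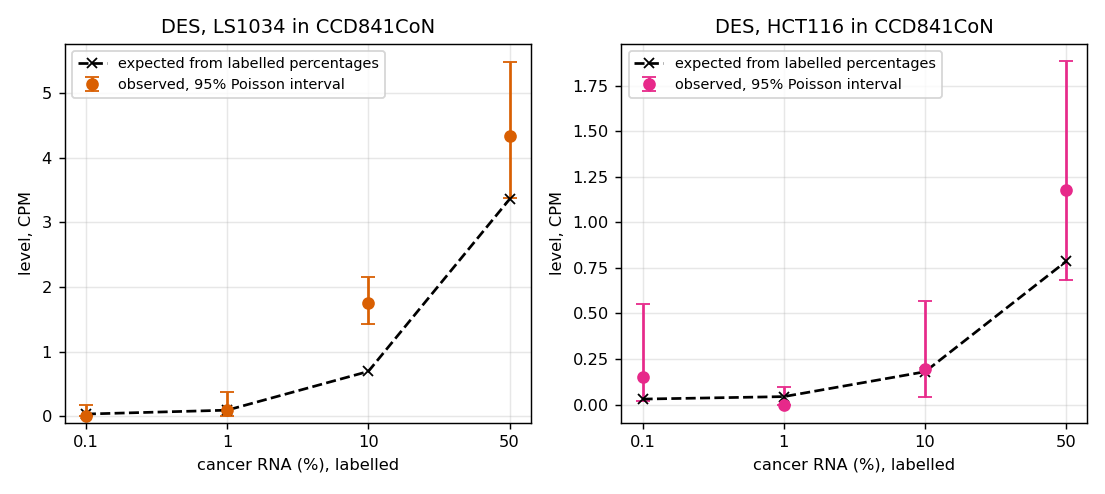
DES level in CPM (vertical axis) in the mixtures with LS1034 and HCT116 RNA (horizontal axis, labelled percentage, evenly spaced steps), 1 library per point with its 95% Poisson interval, and the level expected from the unmixed lines as crosses. The 10% LS1034 mixture lies at 1.76 CPM above the expected 0.695 CPM.

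MYH11 gave 0 to 50 counts in the mixtures and showed no order with the mixing ratio. In the HCT116 series it was at 2.27 CPM (35 counts) at 10% and at 0.0692 CPM (1 count) at 50%, and in the LS1034 series it was at 0 counts at 1% and 16 counts at 50%. No mixture comparison was called for MYH11 (edgeR adjusted p = 0.862 at 10% and 0.986 at 50%).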

How the data were processed

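The authors deposited 1 table of whole-number read counts per gene, unnormalized. Per the labels' protocols, libraries were made from total RNA with a stranded kit after ribosomal RNA depletion. Per the submitters' processing notes, STAR, featureCounts and hg19 were used; their versions, the annotation and the strand setting are not given in the sources used here. Groups come from the labels, and 0 columns were left unused.

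Tests used edgeR 4.0.16 in R 4.3.3, with its quasi-likelihood fit, TMM scaling, filterByExpr and Benjamini-Hochberg adjustment over all genes tested: the 15 unmixed libraries in 1 fit, the 16 mixtures in another, and the 0.1% mixtures with CCD841CoN in the third. Calls in mixtures used the adjusted p alone. The SE beside a log2 fold change is its size divided by the square root of the test's F statistic. It is approximate, above all where a group has few counts. DESeq2 1.42.0 was the alternative tool. Expected levels add the unmixed mean CPM by the labelled percentages. Cancer shares use marker genes with a log2 fold change of at least 5 and at least 5 CPM. Exon lengths and overlaps are from GENCODE on GRCh38, and no coordinates were transferred. Levels and intervals were computed in Python 3.11.15 (pandas 2.3.3, scipy 1.17.1). The fits were checked on simulated counts.

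The members and all gene lists were chosen with earlier results of these data known. Named genes were the 10 members, up to 4 of the most abundant called or uncalled genes per list, and the 3 genes most correlated with each member, except where stated. Some listed genes are not analysed here. Replicate numbers paired the cancer lines (18 of 18 equal-numbered pairs correlated best with their own number, r = 0.175 to 0.544) but not CCD841CoN (2 of 12, -0.0408 to 0.0217), so the number was a block only in an alternative fit. Further settings tried were scaling by DESeq2 size factors or by library size alone, an unfiltered fit, fits of just the compared groups, the 0.1% mixtures as control, and leaving out each library.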

Additional observations from a re-analysis of the deposited data

Results flagged for a closer look

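In 4 of 40 groups of 4 mixtures examined (10 members at 4 ratios) 1 library stood apart from the others, by its gap relative to the range. Such a gap can be small in CPM, and chance gives it in about 1 of 20 groups of alike samples. The 4 mixtures of a ratio hold RNA of different lines, so that rate does not apply to DES, whose level differs between the lines. ACTA2 was at 1082 CPM in the 1% HCT116 mixture, with the other 1% mixtures at 1165 to 1169 CPM. MYL9 was at 225 CPM in the 10% HCT116 mixture, with the others at 219 to 219 CPM. DES was at 0.153 CPM in the 0.1% HCT116 mixture, which is 2 counts, with the others at 0. DES was at 1.76 CPM in the 10% LS1034 mixture, with the others at 0 to 0.194 CPM, and LS1034 is the line with the highest DES level. The cause was not tested in any of these.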

How the results depend on the processing

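Of 83 called member values, 72 kept their call and direction under all alternatives run, 11 lost the call under at least 1 (43 of 1133 values), and 0 reversed. The 8 members lower than CCD841CoN in each line stayed 8 in every alternative. The replicate block changed no member count among the unmixed lines by over 1.5 times (LoVo versus LS1034 lower, 3; LS1034 versus HCT116 higher, 2).

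Uncalled values changed sign for MYH11 in LoVo (0.08; -0.067 with DESeq2 size factors, -0.078 with DESeq2, -0.096 with the replicate block, -0.52 to 0.56 with 1 library left out) and, with 1 library left out, MYH11 in HCT116 (-0.33 to 0.94), DES in LoVo (-0.50 to 3.35) and DES in HT-29 (-0.0069 to 3.98). DES was called higher in the mean of the lines, but with 1 library left out the number of members called higher was 0 to 1 (0 without CCD841CoN replicate 1). Between cancer lines, members called lower in LoVo than LS1034 were 1 to 3 with 1 library left out and 1 in a fit of the compared groups. Members higher in LS1034 than HCT116 were 1 to 2 with 1 library left out and 1 with library size only. Members lower in HT-29 than HCT116 were 3 in a fit of the compared groups.

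For 1% mixtures, 6 genes were called, 58 by DESeq2, 124 with the cancer line as replicate block, 3 in a fit of the compared groups and 1 to 8 with 1 library left out. For 10% mixtures, 502 were called, 1217 by DESeq2, 976 with the block, 1424 in a fit of the compared groups and 219 to 408 with 1 library left out. Members lower at 10% were 3, 7 with DESeq2 size factors, 0 with library size only, 8 by DESeq2, 7 with the cancer line as replicate block, 8 in a fit of the compared groups and 0 to 3 with 1 library left out. Members higher at 50% were 0 to 1 with 1 library left out. The 0.1% mixtures against CCD841CoN gave 0 genes, 111 by DESeq2 and 0 to 2118 with 1 library left out, and 0 members lower, 1 by DESeq2 and 0 to 6 with 1 library left out. The observed over expected level at 10% was 0.983 with the 0.1% mixtures and 0.977 with CCD841CoN replicate 1 as the normal profile, and at 50% 0.747 on TMM-scaled CPM. The cause was not tested.

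Library size only moved the median of all genes from 0.22 to 0.51 (log2, mean of lines versus CCD841CoN) and the calls from 3584 higher and 3222 lower to 4534 and 2735. At 10% the calls were 390 higher and 112 lower, and 450 and 13 with library size only. Low counts of DES, MYH11 and, in cancer lines, ACTG2 and CNN1 limit their folds.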
